A study of Homo sapiens with 4 samples.

Results

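The 10 genes described here are long noncoding RNA genes with a record in cancer: LINC01234, MALAT1, NEAT1, GAS5, SNHG1, PVT1, MIR205HG, MIR31HG, LINC00511 and H19. They were chosen by name, as 10 of the 60649 gene rows of the count table and 10 of the 18771 genes that passed the filter on low counts. LINC01234 was listed for its higher counts in the TINCR libraries, so its difference between the groups is given as a description with no test. The other 9 genes were listed with earlier results of these libraries known. RNA was sequenced from FaDu cells, an established human line from a squamous cell carcinoma of the hypopharynx, grown in MEM alpha with fetal bovine serum. One group carried a construct that overexpresses TINCR joined to HA and FLAG tags, and the other carried an empty vector. TINCR is itself a gene first described as a long noncoding RNA of differentiating epidermis. Each group had 2 libraries, and the series calls the replicates technical, so a p-value here measures only the spread between libraries of 1 cell line. The promoter of the construct and whether the cells are a clone or a pool are not stated by the labels.

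Long noncoding RNAs are transcripts that act, where a function is known, as RNA. Some stay in the nucleus and organise protein bodies there. MALAT1 sits in nuclear speckles, which store splicing factors, and NEAT1 is the scaffold of paraspeckles. Others are host transcripts whose introns or exons release a small RNA, such as the box C/D snoRNAs of GAS5 and SNHG1 and the microRNAs of MIR205HG, MIR31HG and H19. The spliced remainder of a snoRNA host is usually short-lived and is degraded by nonsense-mediated decay. H19 is an imprinted gene expressed from the maternal allele and shares control elements with IGF2. PVT1 lies beside MYC and LINC00511 beside SOX9. LINC01234 has been reported at raised levels in several carcinomas.

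LINC01234 (ENSG00000249550.7) is a lincRNA gene at GRCh38 chr12:113679459-113773683 on the minus strand, with 5 transcripts in GENCODE 29 and no other placed row of the table overlapping it. The table of RefSeq promoters, built on GRCh38.p14, held a window for 8 of the 10 genes. The window of LINC01234, chr12:113773634-113773933 on the minus strand, spans 250 bases before to 50 after the annotated start. It is shown because this gene carries the widest difference between the groups among the 10, with each CCAAT on either strand in capitals.
LINC01234: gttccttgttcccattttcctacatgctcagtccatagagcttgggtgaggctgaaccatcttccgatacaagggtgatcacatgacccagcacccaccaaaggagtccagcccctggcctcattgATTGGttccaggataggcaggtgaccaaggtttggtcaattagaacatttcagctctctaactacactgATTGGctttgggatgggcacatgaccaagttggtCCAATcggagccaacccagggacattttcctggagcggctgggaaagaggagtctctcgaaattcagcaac
CCAAT, a common promoter element, began 124 and 55 bases before the start on the opposite strand, written above as ATTGG, and 21 bases before it on the strand of the gene. Of 35116 windows of this length, 34.6% held CCAAT at least once on either strand and 3.26% held it 3 times or more. GAS5 also held it 3 times, MIR205HG once, and the other 5 windows not at all. The LINC01234 window held no match on either strand to the TATA box TATAAA, which 11.5% of all windows held, or to the GC box GGGCGG, which 45.0% held. It also held no match to the AP-1 element TGANTCA, found in 7.71%, or to the E-box that MYC binds, CACGTG, found in 7.26%. A match is a description of letters and not of binding.

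The LINC01234 counts were 88 and 89 in the empty vector libraries and 315 and 377 in the TINCR libraries. As CPM, counts scaled to a common library size by TMM, these were 5.14, 5.25, 17.11 and 16.99. Both TINCR libraries lay far above both empty vector libraries, and the libraries of a group were nearly level. The means were 5.19 ± 0.0796 CPM (SD, n = 2) with the empty vector and 17.05 ± 0.0796 CPM (SD, n = 2) with TINCR, a fitted fold of 3.28 (log2 fold change 1.71, SE 0.18). Under the 10 alternative settings the log2 fold change ran from 1.66 to 1.73. In these bulk RNA samples, more cells expressing this gene and more of its RNA per cell cannot be told apart.

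None of the tested genes next to LINC01234 passed the test between the groups. RBM19, a gene for a ribosome biogenesis protein, is the nearest tested gene above it, 43.05 kb away, and had counts of 886, 813, 846 and 1006 (log2 fold change -0.13, SE 0.11, edgeR adjusted p = 0.77). LHX5, a LIM homeobox gene, is the nearest tested gene below it at 207.2 kb, with counts of 46, 57, 68 and 85 (0.32, SE 0.28, edgeR adjusted p = 0.79). The window of 250 kb on each side held 3 tested genes, of which 0 were called at an adjusted p under 0.05, with log2 fold changes from -0.13 to 0.32. The unadjusted p was also above 0.05 for all 3.

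ALDH1A1, GYG2, STEAP4, IFI27 and DNM1 came closest to the LINC01234 pattern over the 4 libraries, by Euclidean distance between centred log2 CPM profiles among 13225 genes. The distance was 0.172 for ALDH1A1, a retinaldehyde dehydrogenase gene, 0.186 for GYG2, a glycogenin gene, 0.237 for STEAP4, a metalloreductase gene, 0.241 for IFI27, an interferon-inducible gene, and 0.250 for DNM1, a dynamin gene. ALDH1A1 had counts of 79, 69, 266 and 340, and STEAP4 63, 67, 274 and 326. The log2 fold changes of the 5 ran from 1.49 for IFI27 to 1.95 for STEAP4. They were picked for this pattern, so no test is given. Genes and proteins that published work has linked to LINC01234 (CBFB, VAV3, BTG2, EZH2, KDM1A and HNRNPA2B1) were all tested, and 0 of 6 were called in either direction. Their median log2 fold change was -0.08, against 0.004 over all genes tested. VAV3, a guanine nucleotide exchange factor gene, was at 21.7 ± 1.28 CPM with the empty vector and 28.5 ± 2.18 CPM with TINCR (SD, n = 2 each; log2 fold change 0.39, edgeR adjusted p = 0.31), and BTG2, an antiproliferative gene, at 6.37 ± 0.244 and 8.97 ± 0.320 CPM (0.50, edgeR adjusted p = 0.41). The groups did not overlap in these 2, which were also the 2 with an unadjusted p under 0.05. Over all genes tested the groups did not overlap in 39.6%, and 10.2% had an unadjusted p under 0.05. HNRNPA2B1, an RNA-binding protein gene, was at 518 ± 40.7 and 478 ± 49.9 CPM (SD, n = 2 each), and CBFB, a core-binding factor subunit gene, at 142 ± 6.23 and 132 ± 10.4 CPM.

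Levels between genes were compared as CPM per kilobase of the union of annotated exons. By this measure MALAT1 was the highest with the empty vector, at 653 and 327. It was followed by MIR205HG at 239 and 154, H19 at 165 and 203, and NEAT1 at 195.0 and 67.4. The ranges of MIR205HG and H19 overlapped, as did those of H19 and NEAT1, so these 3 have no order beyond their spread. GAS5 followed at 55.0 and 42.2, SNHG1 at 22.9 and 19.2, PVT1 at 15.3 and 11.5 and MIR31HG at 6.42 and 6.18. LINC01234, at 1.15 and 1.17, and LINC00511, at 0.653 and 0.489, were the lowest. With TINCR the same order of means held except that H19 (277 on average) stood above MIR205HG (216). Their ranges overlapped there too, with H19 at 244 and 310 and MIR205HG at 255 and 176. LINC01234 reached 3.82 and 3.79 and kept rank 9. LINC00511 has 106 annotated transcripts over 27605 bases of exon. Per kilobase of its longest transcript, it stood at 4.19, above LINC01234 at 2.49. By that measure H19 at 227 also stood above MIR205HG at 206, and PVT1 at 43.3 above SNHG1 at 28.6. Both measures divide NEAT1, with 8 annotated transcripts, by nearly the same length, 22767 and 22743 bases. If its counts came mostly from a shorter transcript, its level per kilobase would be higher than given. Its place below MALAT1 therefore holds only for these lengths.

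**Figure D1:**
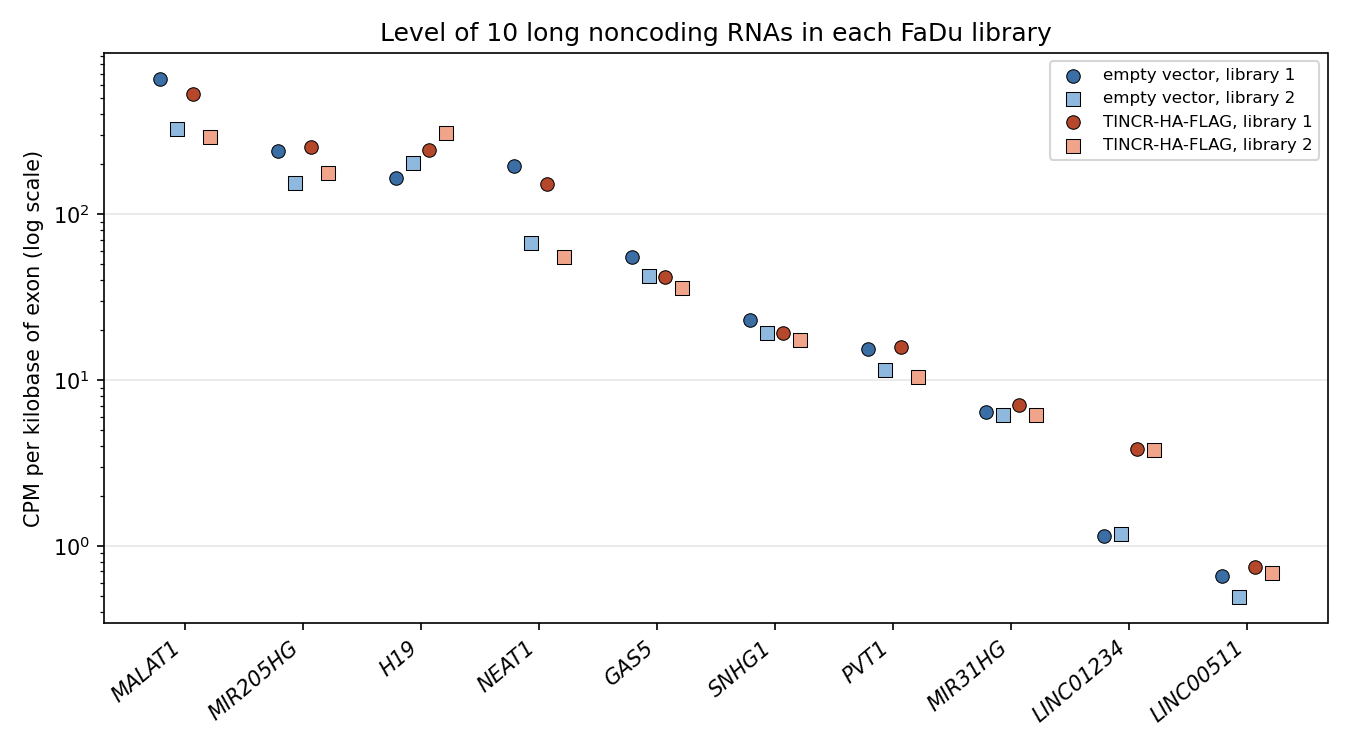
Level of each of the 10 genes in each library, as CPM per kilobase of annotated exon on a log axis, ordered by the empty vector mean; circles are libraries numbered 1, squares those numbered 2, blue the empty vector and orange TINCR-HA-FLAG. LINC01234 has the widest gap between orange and blue points, at 3.82 and 3.79 against 1.15 and 1.17. MALAT1, NEAT1, MIR205HG and PVT1 separate circles from squares, and MIR31HG does so narrowly.

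Among the other 9 genes, 0 passed the test between the groups in either direction. Over all 18771 genes tested, 85 were called higher (0.453%) and 18 lower (0.0959%), and over the 2919 long noncoding RNA genes tested 2 were called (0.0685%). An absence of calls among 9 genes is therefore near the background. The 2 libraries of a group lay wholly above or below the other group for 5 of the 10 genes, with LINC01234, H19 and LINC00511 higher and GAS5 and SNHG1 lower. LINC01234 was listed for its rise, so its separation was set by that choice. A separation in either direction was found in 39.6% of all genes tested and in 31.3% of the long noncoding RNA genes tested. An unadjusted p under 0.05, to which the counts for the lists compare, was reached by 10.2% of all genes tested and 6.0% of the long noncoding RNA genes tested.

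**Figure D2:**
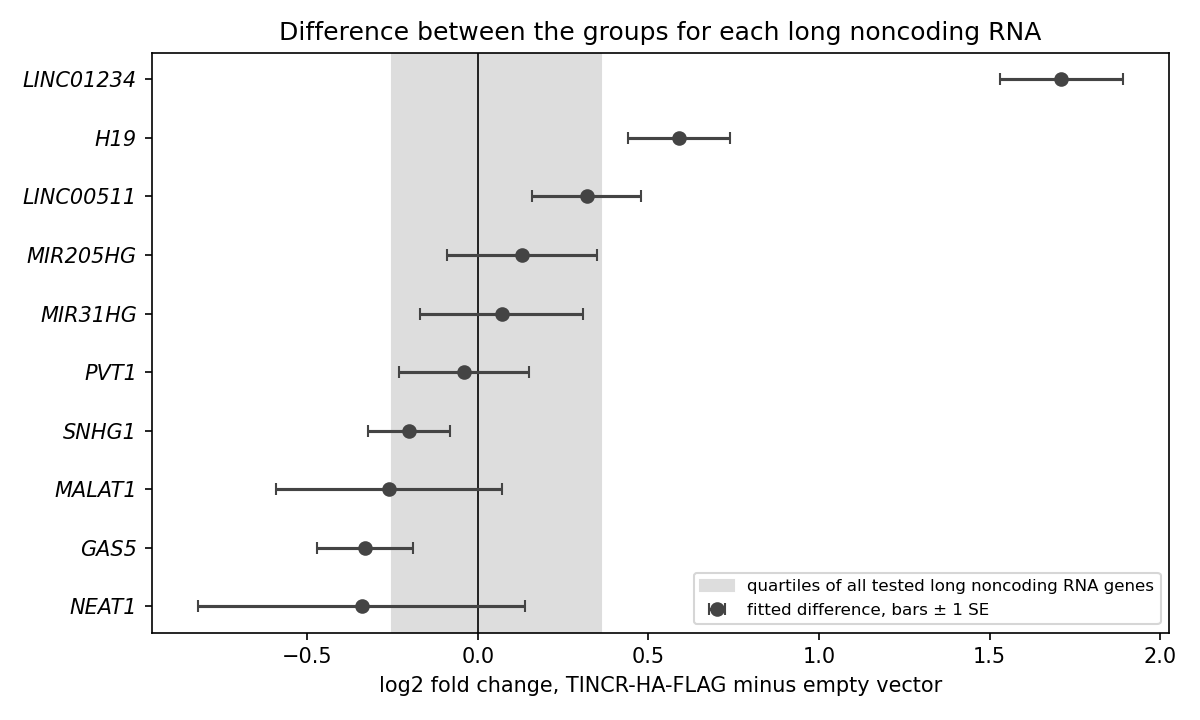
Fitted log2 fold change of each gene, TINCR-HA-FLAG minus empty vector, with bars of 1 SE (2 libraries per group); the grey band spans the quartiles of the tested long noncoding RNA genes, from -0.25 to 0.36. LINC01234 at 1.71 and H19 at 0.59 lie above the band, MALAT1 at -0.26, GAS5 at -0.33 and NEAT1 at -0.34 lie below it, and NEAT1 has the widest bar, 0.48 on each side.

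MALAT1 (ENSG00000251562.8, chr11:65497688-65506516, plus strand) had counts of 98779 and 48975 for the empty vector and 85928 and 56996 for TINCR, or 5766, 2889, 4666 and 2569 CPM. NEAT1 (ENSG00000245532.9, chr11:65422774-65445540, plus strand) had 76039, 25995, 63954 and 27737 counts, or 4439, 1533, 3473 and 1250 CPM. In both genes the library numbered 1 was the high one in each group, and the groups overlapped. The log2 fold change was -0.26 for MALAT1 (SE 0.33, edgeR adjusted p = 0.87) and -0.34 for NEAT1 (SE 0.48, edgeR adjusted p = 0.89). Between libraries of the same number, both genes were lower with TINCR in number 1 and in number 2. Leaving out 1 library, which leaves the numbers unequal between the groups, turned both signs. Without empty vector replicate 1 MALAT1 stood at 0.28 and NEAT1 at 0.58, and without TINCR-HA-FLAG replicate 2 they stood at 0.10 and 0.21. Without TINCR-HA-FLAG replicate 1 NEAT1 stood at -1.25 with an edgeR adjusted p of 0.037, in a range of 0.037 to 0.88 over the 4 libraries left out in turn.

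The difference between libraries of a group was wider for NEAT1 and MALAT1 than for the other 8 genes. Library 1 held 2.90 times the NEAT1 CPM of library 2 with the empty vector and 2.78 times with TINCR. For MALAT1 the ratios were 1.996 and 1.82, for MIR205HG 1.55 and 1.45, and for PVT1 1.323 and 1.52. They were 1.30 and 1.16 for GAS5, 1.19 and 1.10 for SNHG1, 1.33 and 1.08 for LINC00511, and 1.04 and 1.15 for MIR31HG. LINC01234 was level, at 0.979 and 1.01, and H19 was lower in library 1 in both groups, at 0.814 and 0.785. By the smaller of its 2 ratios NEAT1 ranked 2 of 13770 genes with a mean of at least 2 CPM, and MALAT1 ranked 49. In that set a ratio of 1.5 or more in both groups was found for 122 of 1065 long noncoding RNA genes (11.5%) and for 108 of 11857 protein-coding genes (0.911%). The reverse, library 2 higher by as much in both groups, was found for 2 long noncoding RNA genes (0.188%) and 9 protein-coding genes (0.0759%). The labels do not say what the library number marks. The mitochondrial share of counts moved with it, at 9.43% and 11.4% in the libraries numbered 1 and 7.58% and 8.66% in those numbered 2, and its part in these levels was not tested.

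**Figure D3:**
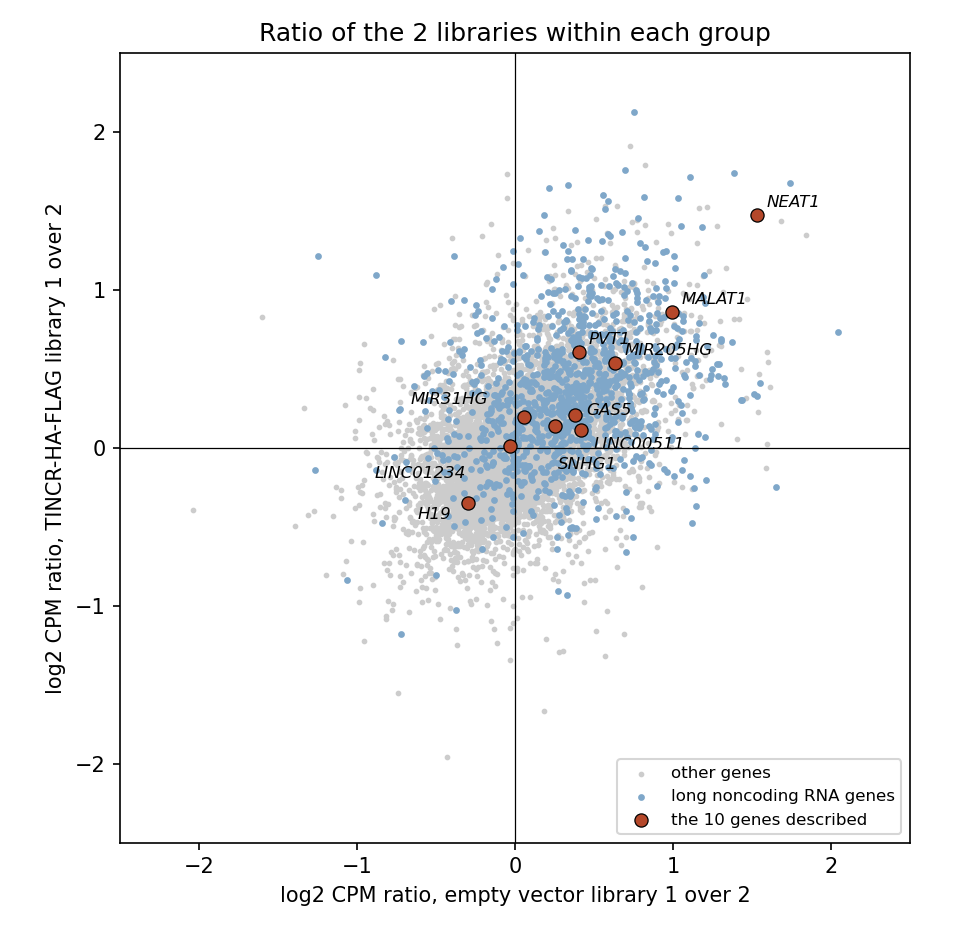
Log2 ratio of library 1 to library 2 with the empty vector (horizontal axis) and with TINCR-HA-FLAG (vertical axis), 1 point per gene with a mean of at least 2 CPM. The blue points of long noncoding RNA genes lie to the upper right of the grey points of other genes, with medians of 0.34 and 0.33 against -0.04 and -0.04 for protein-coding genes, and NEAT1 and MALAT1 lie near the edge of the cloud.

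Genes for the protein partners of these nuclear RNAs had small fitted differences, and none passed the test. Of 34 tested rows of paraspeckle protein genes 0 were called, with a median log2 fold change of -0.06 and a range of -0.26 to 0.30. HNRNPA1, an RNA-binding protein gene, was at 597 ± 21.1 CPM with the empty vector and 576 ± 2.62 CPM with TINCR, and HNRNPK at 470 ± 41.0 and 476 ± 22.7 CPM (SD, n = 2 each). Of 27 nuclear speckle and splicing factor genes 0 were called, with a median of -0.08 and a range of -0.34 to 0.40. SRRM2, a core protein of speckles, was at 1239 ± 302 and 1073 ± 196 CPM, and SON, its partner there, at 880 ± 69.3 and 814 ± 93.8 CPM. At an unadjusted p under 0.05 stood 3 paraspeckle and 2 speckle genes, no larger a share than the 10.2% of all genes tested. The small RNA row that starts at the end of NEAT1 held 13, 14, 9 and 4 counts, and the FAUP4 pseudogene between NEAT1 and MALAT1 held 20, 9, 17 and 8. FRMD8, a FERM-domain protein gene below NEAT1, differed by -0.03 on the log2 scale (SE 0.11, edgeR adjusted p = 0.96). Among the 22 tested genes within 250 kb of MALAT1 and the 24 within 250 kb of NEAT1, 0 were called.

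GAS5 (ENSG00000234741.8, chr1:173863900-173868882, minus strand) and SNHG1 (ENSG00000255717.7, chr11:62851988-62855914, minus strand) are the snoRNA hosts among the 10. Host genes of this class often start with a run of pyrimidines, the terminal oligopyrimidine tract, which makes translation follow growth signals. The first 50 bases from the RefSeq start of each are shown for that feature, with the longest pyrimidine run in capitals, at chr1:173868996-173869045 for GAS5 and chr11:62855836-62855885 for SNHG1, both on the minus strand.
GAS5: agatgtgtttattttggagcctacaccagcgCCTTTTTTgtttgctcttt
SNHG1: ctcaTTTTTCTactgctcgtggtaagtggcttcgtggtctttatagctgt
In SNHG1 the longest run had 7 bases and began at base 5. In GAS5 it had 8 bases and began at base 32 of this RefSeq start. The GAS5 bases shown all lie before the start of the gene as placed above, and the SNHG1 bases lie just inside it. The RefSeq starts thus differ from those of the counted genes. Whether the measured GAS5 and SNHG1 transcripts start with such a tract was not tested.

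GAS5 had counts of 3424 and 2598 for the empty vector and 2779 and 2897 for TINCR, or 200, 153, 151 and 131 CPM. Both TINCR libraries lay below both empty vector libraries, the nearest pair by a small margin. The log2 fold change was -0.33 (SE 0.14), with an unadjusted p of 0.039 and an edgeR adjusted p of 0.45. SNHG1 had counts of 1472, 1224, 1328 and 1457, or 85.9, 72.2, 72.1 and 65.7 CPM. Its groups also did not overlap, with the nearest pair almost level, and its log2 fold change was -0.20 (SE 0.12, edgeR adjusted p = 0.64). All 7 rows for snoRNAs inside SNHG1, for SNORD22, SNORD25 to SNORD28 and SNORD30, held 0 counts in every library. How reads in such overlapping rows were assigned is not stated by the labels. GAS5-AS1 overlaps the end of GAS5 on the other strand and had counts of 97, 83, 70 and 72 (log2 fold change -0.59, SE 0.26, edgeR adjusted p = 0.47). ZBTB37, a protein-coding gene, overlaps the start of GAS5, also on the other strand. It had counts of 681, 567, 903 and 874 (log2 fold change 0.27, SE 0.14, edgeR adjusted p = 0.57). The strand setting of the counting is not given by the labels, so reads of GAS5 and these overlapping rows may not be told apart.

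A wider list of snoRNA hosts was also mostly lower by fitted value, without a call. Of 25 tested hosts 0 were called, the log2 fold change was below 0 in 20 and above 0 in 5, and its median was -0.17, against 0.004 over all genes tested. In 8 hosts both TINCR libraries lay below both empty vector libraries and in 1 both lay above. Such a separation in either direction was found in 39.6% of all genes tested and 31.3% of the long noncoding RNA genes tested. The count of both directions together is near these shares, which do not cover the split by direction. An unadjusted p under 0.05 was reached by 4 of the 25, against 10.2% of all genes tested and 6.0% of the long noncoding RNA genes tested. SNHG29 was at 157 ± 10.9 CPM with the empty vector and 153 ± 6.62 CPM with TINCR (SD, n = 2 each), and SNHG3 at 121 ± 31.9 and 99.97 ± 13.1 CPM. The hosts were also higher in libraries numbered 1, with median log2 ratios of 0.23 with the empty vector and 0.07 with TINCR. Long noncoding RNA genes with a mean of at least 2 CPM had medians of 0.34 and 0.33, so this is not particular to the hosts. The 21 nonsense-mediated decay factor genes had a median of -0.06 and the 21 tested translation genes with a terminal oligopyrimidine tract a median of -0.06, with 0 called in either. GSPT1, a translation release factor gene, was at 238 ± 16.5 and 217 ± 9.44 CPM, and SMG1, the kinase that phosphorylates UPF1, at 362 ± 32.1 and 371 ± 55.1 CPM. EEF1A1, an elongation factor gene, was at 6565 ± 672 and 6198 ± 373 CPM and PABPC1, a poly(A)-binding protein gene, at 4208 ± 230 and 4120 ± 396 CPM.

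Among the neighbours of the snoRNA hosts, SLC3A2 stood nearest to a difference. This gene for the heavy chain of an amino acid transporter starts 0.188 kb from the start of SNHG1 and runs the other way. Its counts were 6126, 7073, 4537 and 6945 (log2 fold change -0.47, SE 0.14), and its edgeR adjusted p was 0.24. Without TINCR-HA-FLAG replicate 2 it stood at -0.66 with an adjusted p of 0.015, in a range of 0.015 to 0.75 over the 4 libraries left out in turn. WDR74, on the other side of SNHG1, had a log2 fold change of -0.35 (SE 0.15, edgeR adjusted p = 0.46). RC3H1, the roquin gene above GAS5, had 0.18 (SE 0.11, edgeR adjusted p = 0.65).

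MIR205HG and MIR31HG each give rise to a microRNA, and the seed of each is shown in capitals (bases 2 to 8), since the seed sets the targets and the 2 seeds differ. Both mature sequences are from RefSeq, at chr1:209432166-209432187 on the plus strand for miR-205-5p and chr9:21512158-21512178 on the minus strand for miR-31-5p of GRCh38.p14.
miR-205-5p: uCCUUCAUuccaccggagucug
miR-31-5p: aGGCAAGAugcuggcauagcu
A library of this kind is not made for RNAs of this length, so the mature microRNAs were not measured.

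MIR205HG (ENSG00000230937.12, chr1:209428820-209432838, plus strand) had counts of 14393 and 9165 for the empty vector and 16517 and 13734 for TINCR, or 840, 541, 897 and 619 CPM. The groups overlapped, and library 1 was the high one in each. Its log2 fold change was 0.13 (SE 0.22, edgeR adjusted p = 0.90), and it stood at -0.15 without empty vector replicate 2 and at -0.15 without TINCR-HA-FLAG replicate 1. The separate MIR205 row, inside the host, had 116, 78, 122 and 111 counts (0.02, SE 0.26, edgeR adjusted p = 0.99). Those reads and the host's come from the same stretch of genome and may be split between the rows. MIR31HG (ENSG00000171889.5, chr9:21455642-21559669, minus strand) had counts of 82, 78, 97 and 102, or 4.79, 4.60, 5.27 and 4.60 CPM. It had overlapping groups and a log2 fold change of 0.07 (SE 0.24, edgeR adjusted p = 0.96) that stood at -0.02 without TINCR-HA-FLAG replicate 1. The MIR31 row held 2, 0, 2 and 1 counts.

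Of 16 tested genes on a list of long noncoding hosts of other microRNAs 0 were called, with 13 negative and 3 positive log2 fold changes and a median of -0.09. MIR9-3HG, a microRNA host that is not on this list, was called higher with TINCR (log2 fold change 2.11, edgeR adjusted p = 0.043). MIR23AHG, host of the miR-23a cluster, was at 61.4 ± 17.6 CPM with the empty vector and 39.0 ± 7.53 CPM with TINCR (SD, n = 2 each), a log2 fold change of -0.66 with an edgeR adjusted p of 0.22. MIR4435-2HG was at 48.1 ± 7.99 and 41.9 ± 9.65 CPM. This list had median log2 ratios of library 1 to library 2 of 0.48 and 0.49. For long noncoding RNA genes with a mean of at least 2 CPM these were 0.34 and 0.33. The tested genes nearest to MIR205HG were LINC01698 (log2 fold change -0.38) and CAMK1G, a calmodulin-dependent kinase gene (-1.19), and those nearest to MIR31HG were KLHL9 (0.19) and the pseudogene KHSRPP1 (0.15). Their edgeR adjusted p ran from 0.65 to 0.96.

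H19 (ENSG00000130600.19, chr11:1995176-2001470, minus strand) had counts of 8184 and 9952 for the empty vector and 12998 and 19945 for TINCR, or 478, 587, 706 and 899 CPM. Both TINCR libraries lay above both empty vector libraries, and the gap between the nearest pair was smaller than the spread of the TINCR pair. Its log2 fold change was 0.59 (SE 0.15), with an unadjusted p of 0.003 and an edgeR adjusted p of 0.16, which does not pass. DESeq2 gave 0.57 with an adjusted p of 0.021, which passes. Without TINCR-HA-FLAG replicate 1 edgeR gave 0.76 with an adjusted p of 0.015, and over the 4 libraries left out in turn the adjusted p ran from 0.015 to 0.82. The MIR675 row inside H19 held 0 counts in every library. IGF2, the paired imprinted growth factor gene 127.6 kb away, was at a low level, with 11, 20, 29 and 33 counts. Its CPM in both TINCR libraries lay above both empty vector libraries (log2 fold change 0.74, SE 0.46, edgeR adjusted p = 0.66). MRPL23-AS1, on the other side, had 33, 36, 30 and 42 counts.

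Among 17 tested imprinted genes 2 were called, both higher with TINCR, where 0.453% of all genes tested were called higher. The list was chosen with earlier results of these libraries known, so this is a description and not a test of imprinted genes. PEG10, a retrotransposon-derived gene, was at 57.8 ± 2.94 CPM with the empty vector and 103 ± 9.41 CPM with TINCR (SD, n = 2 each; log2 fold change 0.84, edgeR adjusted p = 0.0091). NDN, which encodes necdin, was at 0.969 ± 0.298 and 5.72 ± 1.79 CPM (2.57, edgeR adjusted p = 0.025). The median of the 17 was 0.14, with 11 positive, and 7 of the 27 listed genes held 0 counts in every library. The maternal or paternal origin of these transcripts was not measured.

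PVT1 (ENSG00000249859.12, chr8:127794533-128101253, plus strand) had counts of 1436 and 1074 for the empty vector and 1595 and 1262 for TINCR, or 83.8, 63.4, 86.6 and 56.9 CPM. The groups overlapped, with library 1 high in each. Its log2 fold change was -0.04 (SE 0.19, edgeR adjusted p = 0.97), and it stood at 0.13 without empty vector replicate 1 and at 0.23 without TINCR-HA-FLAG replicate 2. MYC, the transcription factor gene 53.1 kb below it, had 3374, 3887, 3257 and 4636 counts (-0.14, SE 0.12, edgeR adjusted p = 0.78). The 4 microRNA rows inside PVT1 held 1 count in all 4 libraries together. GSDMC, a gasdermin gene 1647 kb above, had a log2 fold change of -0.37 (edgeR adjusted p = 0.57).

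LINC00511 (ENSG00000227036.8, chr17:72290091-72640472, minus strand) had counts of 309 and 229 for the empty vector and 377 and 421 for TINCR, or 18.0, 13.5, 20.5 and 18.98 CPM. The groups did not overlap, and the difference was small, with a log2 fold change of 0.32 (SE 0.16, edgeR adjusted p = 0.57). SOX9-AS1, the nearest tested gene below it, had 14, 10, 21 and 8 counts. SOX9 itself, a transcription factor gene 163.7 kb away, had 257, 299, 206 and 353 (-0.26, SE 0.19, edgeR adjusted p = 0.73).

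Of 41 tested genes on a list of other cancer long noncoding RNAs 0 were called, with 29 positive and 12 negative log2 fold changes and a median of 0.15. Both TINCR libraries lay above both empty vector libraries for 12 of them and below for 6. A separation in either direction was found in 31.3% of all long noncoding RNA genes tested and 39.6% of all genes tested. NORAD, which binds PUMILIO proteins, was at 429 ± 14.5 CPM with the empty vector and 467 ± 14.5 CPM with TINCR (SD, n = 2 each), and AFAP1-AS1 at 184 ± 5.13 and 175 ± 5.41 CPM. At an unadjusted p under 0.05 stood 8 of the 41, against 6.0% of all long noncoding RNA genes tested and 10.2% of all genes tested. The median log2 CPM was 0.5 over the long noncoding RNA genes tested and 3.46 over all genes tested. This list too was chosen with earlier results of these libraries known, so its counts are a description. Over all 2919 long noncoding RNA genes tested the median was 0.05 and 54.2% of the log2 fold changes were positive. The other long noncoding RNA gene with an adjusted p under 0.05 was MIR9-3HG, a microRNA host on chromosome 15, which held 17 and 13 counts for the empty vector against 74 and 81 for TINCR (log2 fold change 2.11, SE 0.37, edgeR adjusted p = 0.043). It passed by a small margin and stood at 0.054 without empty vector replicate 2, in a range of 0.0041 to 0.054 over the 4 libraries left out in turn.

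**Figure D4:**
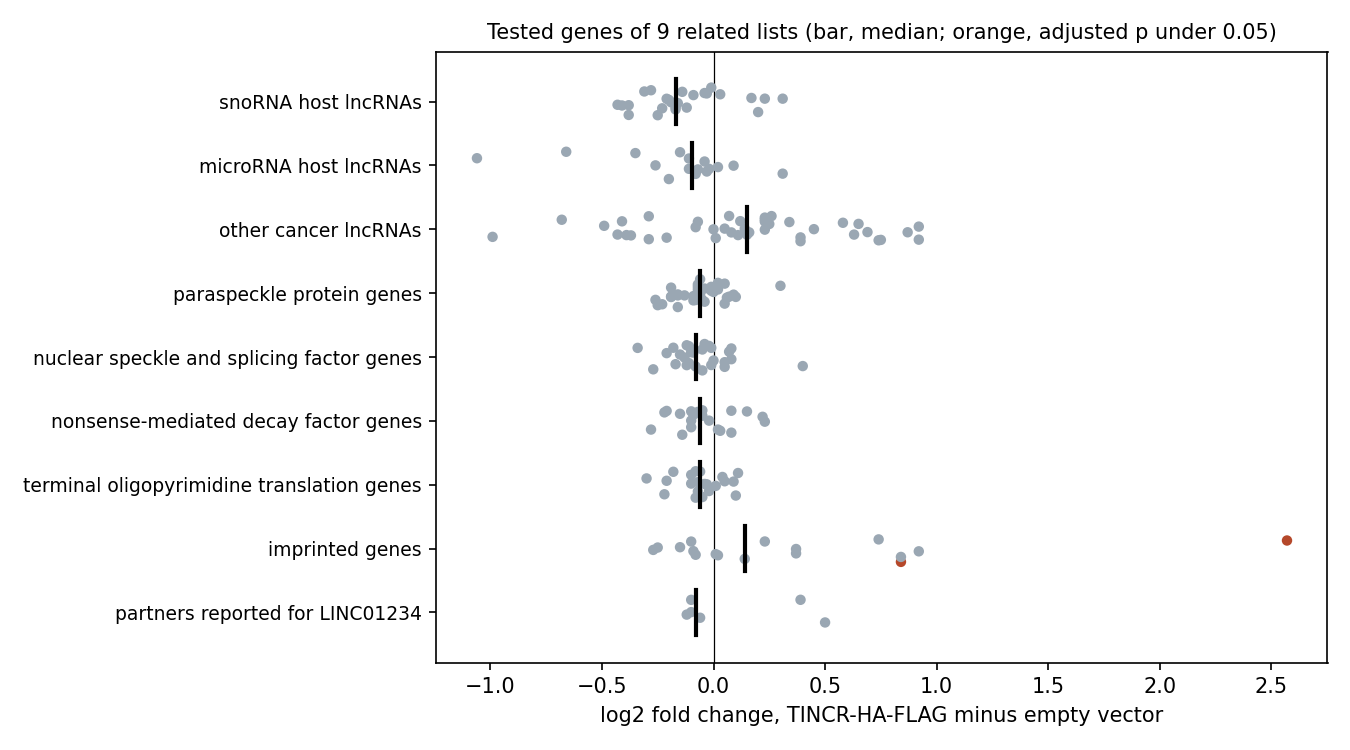
Log2 fold change, TINCR-HA-FLAG minus empty vector, of each tested gene on 9 lists related to the 10 genes, 1 point per gene, with the list median as a black bar. The snoRNA hosts centre at -0.17 and the other cancer long noncoding RNAs at 0.15, and the 2 orange points, PEG10 at 0.84 and NDN at 2.57, are the only called genes.

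Total counts ran from 17069533 to 22331602 per library, at which 3 counts equal 0.14 to 0.18 CPM, for counting error only. The TINCR row, which checks the labels, held 68 and 64 counts without the construct and 1921 and 2943 with it. Long noncoding RNA genes took 1.64% to 2.56% of all counts, and NEAT1 with MALAT1 alone took 0.379% to 1.02%. Of 10 squamous epithelium markers all were tested, and KRT14, a basal keratin gene, was the only one called, lower with TINCR (log2 fold change -1.08, edgeR adjusted p = 0.014). The summed level of these markers was 6437 and 7274 CPM for the empty vector and 5410 and 6014 for TINCR. Fibroblast markers summed to 42.6 to 51.5 CPM and immune markers to 6.90 to 10.4 CPM. Endothelial markers summed to 24.1 and 26.0 CPM for the empty vector and 49.7 and 54.1 for TINCR, where CDH5, a cadherin gene, was called (1.5, edgeR adjusted p = 0.0012) and PECAM1 held 4 to 8 counts. The part of these markers in the level of any of the 10 genes was not tested.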

How the data were processed

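Per the labels' protocols, an RNeasy kit gave the RNA and a NEBNext Ultra kit the libraries. The deposited table holds the authors' whole-number counts per Ensembl gene, not normalized. Per the submitters' processing notes, GRCh38 was the build and STAR 2.7.9a, bcl2fastq 2.20.0.422 and DESeq2 1.32.0 were used, with no role given. For the counter, its strand setting and its annotation nothing is given in the sources used here. A further 12 library columns, of no described sample, were left out. Positions and lengths came from GENCODE 29 (58381 rows matched), symbols from a reference table, and sequences from RefSeq by a symbol match.

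Counts were scaled by TMM, filtered by filterByExpr and tested by quasi-likelihood in edgeR 4.0.16 (robust; 2 residual degrees of freedom per gene) in R 4.3.3. P-values were adjusted over all 18771 genes by the Benjamini-Hochberg method, and genes under 0.05 are called. The scripts were tested on simulated counts. Libraries of a group differed beyond counting noise (chi-square per degree of freedom 11.7 and 16.8), so none was counted as a copy of another.

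The 10 genes and all lists were chosen with earlier results of these data known. Named are the 10 genes, up to 4 called genes per list or the 2 of highest level where none was called, the nearest tested gene on each side and called genes within 250 kb, called long noncoding RNA genes, and the 5 genes nearest to LINC01234 (mean log2 CPM of 1 or more). A few neighbours are not reported here. Named beyond this rule, after their values were seen, are TINCR, KRT14, CDH5, PECAM1, SOX9, VAV3, BTG2, GAS5-AS1 and ZBTB37. The rows inside a host gene were also named in this way. Alternatives were RLE size factors, library totals, no filter, at least 1 CPM in 2 libraries, DESeq2 1.42.0, the replicate number as a block, each library left out in turn, and, for levels, the longest transcript. With a library left out, its lone partner is taken to vary as the other group does.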

Additional observations from a re-analysis of the deposited data

How the results depend on the processing

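The difference of LINC01234, for which it was listed, is given above as a range with no test. The other 9 genes kept their lack of a call under RLE size factors, library totals, both other filters and, but for H19, DESeq2. The number of genes called was 103. It was 53 with no filter on low counts, 190 by DESeq2 and 124 to 386 with a library left out. Of long noncoding RNA genes 2 were called, against 1 with no filter, 4 by DESeq2 and 5 to 27 with a library left out.

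The libraries numbered alike are not said to share a source. Their deviations from the group means correlated at 0.37 over 18771 genes, and with 2 pairs this does not show pairing. With the replicate number as a block the fit leaves fewer residual degrees of freedom than the 2 without it. It called 2633 of the 18771 genes tested and 175 of the 2919 long noncoding RNA genes tested. It also called 8 of the 10 genes, all but PVT1 and MIR31HG. The 8 include LINC01234, which was listed for its rise.

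With a library left out, log2 fold changes ran from -0.75 to 0.28 for MALAT1, -1.25 to 0.58 for NEAT1, -0.37 to 0.23 for PVT1, -0.15 to 0.44 for MIR205HG and -0.02 to 0.16 for MIR31HG. Among neighbours they ran from -1.22 to 0.18 for FAUP4, -0.16 to 0.07 for FRMD8, -2.68 to 0.12 for CAMK1G, -0.25 to 0.63 for KHSRPP1 and -0.95 to 0.68 for SOX9-AS1. The other 4 of the 9 genes kept their sign. Of the 9 lists, the called genes numbered 2 to 11 per list with the replicate number as a block, against 0 in 8 lists and 2 in the imprinted genes. With a library left out the count of a list moved in some cases, to at most 4 genes. MIR9-3HG had an edgeR adjusted p of 0.059 with no filter. The cause was not tested. Levels near 3 counts, such as the MIR31 row, are at the limit of this depth.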
